A study of Homo sapiens with 36 samples.

Results

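The comparison described here set 501mel cells transfected with a control siRNA, labelled siCTR, against 501mel cells given the vehicle dimethyl sulfoxide (DMSO), 3 libraries a group, 6 of the 36 libraries of the series. 501mel is a human melanoma cell line. The siCTR cells received 20 nM of the control siRNA for 48 hours, and the DMSO cells are labelled with the same 48 hours. Both groups grew in RPMI-1640 with 10% fetal bovine serum under 10% CO2, and no genetic change is given for either. The other groups used for comparison were siSCD_2 (a second siRNA against the fatty acid desaturase gene SCD, 20 nM) and SCDi (the SCD inhibitor A939372, 1 uM) in 501mel, the siCTR and DMSO groups of IGR37, another human melanoma line, and, from a separately normalised table, siSCD_1 and its own control siRNA, siCTR_1, in both lines. The labels name neither the transfection reagent nor the sequence of the control siRNA, and nothing in them tells separate cultures from repeat libraries of 1 culture. The p-values therefore measure no more than the spread between these libraries. The siRNA, its carrier and the absence of DMSO came together in the siCTR group and cannot be told apart.

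A control siRNA is meant to have no intended target and serves as the baseline for siRNAs that do. Once loaded into an Argonaute protein, any siRNA can still lower messages whose 3′ untranslated region (3′ UTR) pairs with its seed, the bases 2 to 8 counted from the guide's 5′ end, much as a microRNA does. Double-stranded RNA and lipid carriers can also touch RNA sensing, interferon genes and lipid uptake. In melanoma cells the transcription factor MITF drives the pigment genes, and lower MITF output goes with less differentiated states.

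The libraries count tags at 3′ transcript ends, so a level is given in log2 CPM, the log2 of the reads scaled to library size, and is not divided by gene length. The siCTR libraries held 4452947 to 5002472 gene reads and the DMSO libraries 4738589 to 5644098. Spike-ins took 3.81 to 5.08% of reads in siCTR and 3.57 to 4.37% in DMSO libraries. A gene with 0 reads could lie at up to 0.567 to 0.618 CPM in the siCTR libraries and 0.521 to 0.622 CPM in the DMSO libraries, by counting error only. SCD, the gene the study silenced elsewhere, was at 9.23, 9.49 and 9.36 log2 CPM in siCTR cells and at 9.47, 9.33 and 9.50 in DMSO cells. The groups overlapped (log2 change -0.07 ± 0.16, SE, limma BH adjusted p = 0.843), against 5.03 in siSCD_2 cells. All 8 melanoma markers were in the table, summing to 4228 to 4352 CPM in siCTR and 5585 to 5663 CPM in DMSO libraries. Of markers of other cells, 3 of 14 epithelial genes were in the table (22.2 to 29.1 CPM in siCTR, 26.2 to 30.7 in DMSO), 5 of 12 fibroblast genes (10.6 to 13.2 and 5.59 to 7.35 CPM) and 3 of 16 blood and endothelial genes (42.4 to 80.0 and 51.6 to 65.7 CPM).

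The IGR37 libraries labelled siCTR and DMSO stood the other way round from 501mel for the genes that moved most. SMIM15 was at 5.55 to 5.74 log2 CPM in the IGR37 libraries labelled siCTR and at 4.33 to 4.57 in those labelled DMSO, whereas it was at 4.05 to 4.23 in siCTR and 6.08 to 6.49 in DMSO libraries of 501mel. The IGR37 libraries of SCDi had 5.80 to 6.05 and those of siSCD_2 5.87 to 6.36, so the libraries labelled DMSO stood apart from the other IGR37 groups of the table for this gene. In the separately normalised table, siCTR_1 libraries were low for SMIM15 in both lines, at 4.03 to 4.14 in 501mel and 4.54 to 4.74 in IGR37, against 5.79 to 5.84 and 5.31 to 6.15 in the siSCD_1 libraries. SLC2A3 showed another order, with 5.80 to 5.99 in the IGR37 libraries labelled siCTR against 7.64 to 7.79 in those labelled DMSO, 7.92 to 8.04 with SCDi and 7.73 to 8.23 with siSCD_2. The IGR37 groups are therefore called by their labels only, and they enter the 501mel results through the estimate of the spread, which all 24 libraries of the table share.

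Transfection with the control siRNA went with changes in 1511 of 13364 genes in 501mel (11.3%), 633 higher (4.74%) and 878 lower (6.57%) in siCTR than in DMSO cells, at a limma BH adjusted p under 0.05. Of these, 153 were at least 2-fold higher and 127 at least 2-fold lower. Among the 8129 genes with a mean log2 CPM of 3 or more and a matched 3′ UTR, these counts were 37 and 53. That mean was taken over the siCTR and DMSO groups of both lines. In bulk libraries, fewer cells of a kind and less RNA per cell cannot be told apart. The median change over all genes was 0. The count was 1007 without siCTR replicate 1 and 994 without DMSO replicate 3, and 951 when only the 6 libraries were fitted. It was 241, 114 higher and 127 lower, when each library was scaled on its spike-ins, and under that scaling 73 of the 128 genes named by rule lost their call.

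The 15 largest falls were chosen among genes whose groups did not overlap. Of the 15 largest falls at or above the median level, 10 carried the same 8 bases, ATTACAAA, in their 3′ UTR, and 13 carried this word or 7 of its bases. Among the 8129 genes with a mean log2 CPM of 3 or more and a matched 3′ UTR, the shares were 6.32% and 26.4%. SMIM15, which encodes a small membrane protein, had 4.05, 4.22 and 4.23 log2 CPM in siCTR cells and 6.28, 6.08 and 6.49 in DMSO cells. It was 4.35-fold lower (log2 change -2.12 ± 0.16, adjusted p = 1.82e-09), the largest of the 15 falls. NAA50, an N-terminal acetyltransferase subunit, had 6.25, 6.50 and 6.37 in siCTR cells and 7.99, 7.78 and 8.09 in DMSO cells (-1.58 ± 0.12, adjusted p = 1.73e-09). UBE2G2, a ubiquitin-conjugating enzyme of endoplasmic reticulum protein degradation, had 5.80, 6.30 and 6.34 in siCTR cells and 7.71, 7.64 and 7.73 in DMSO cells (-1.54 ± 0.13, adjusted p = 1.97e-08). For SMIM15, NAA50 and UBE2G2 the siCTR libraries also lay below every siSCD_2 and SCDi library of 501mel.

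The sequences printed here show where the word lies in the 3′ UTRs of 7 of these genes, in 30 transcript bases each, read 5′ to 3′ from GENCODE 29 transcripts (GRCh38) with the word in capitals. The sites are at chr5:61159083-61159112 (minus strand) for SMIM15, chr4:139507488-139507517 (minus) for SETD7, chr3:113721730-113721759 (minus) for NAA50, chr21:44770798-44770827 (minus) for UBE2G2, chr14:52778106-52778135 (minus) for GNPNAT1, chr9:126835625-126835654 (plus) for ZBTB43 and chr12:50820203-50820232 (plus) for ATF1. SMIM15 and UBE2G2 hold 2 copies of the word, of which 1 is printed, and the other 5 genes hold 1. The bases around the word differ from gene to gene.
SMIM15: gtaattcgccgATTACAAAgacaccatttg
SETD7: tacttaaacacATTACAAAaattttggtga
NAA50: acaaATTACAAAtgaactttcttgcacttg
UBE2G2: atttgttatatATTACAAAccatcacactt
GNPNAT1: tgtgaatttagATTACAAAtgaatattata
ZBTB43: ttgtaagcaagATTACAAAcagggatttat
ATF1: ataaattctaaATTACAAAggtaagagaaa

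SETD7, a lysine methyltransferase, had 4.32, 4.48 and 4.59 log2 CPM in siCTR cells and 6.52, 5.91 and 6.20 in DMSO cells (log2 change -1.74 ± 0.22, adjusted p = 4.22e-06). GNPNAT1, an enzyme of UDP-N-acetylglucosamine synthesis, had 4.86, 5.09 and 5.05 in siCTR cells and 6.56, 6.43 and 6.50 in DMSO cells (-1.50 ± 0.11, adjusted p = 1.11e-09). ATF1, a CREB family transcription factor, had 3.77, 3.53 and 3.75 in siCTR cells and 5.02, 4.83 and 5.19 in DMSO cells (-1.32 ± 0.17, adjusted p = 6.40e-06). The remaining holders of the 8 bases among the 15 were ZBTB43 (a zinc finger protein), RPL7L1, AP1AR and TTL (the tubulin tyrosine ligase), with log2 changes of -1.39, -1.26, -1.23 and -1.23. HEATR1, a ribosome biogenesis factor, and SNAI2, a transcription factor of the neural crest, held 7 of the bases and changed by -1.38 and -1.29. TDRD7, a tudor domain protein, and CHCHD6, a protein of the mitochondrial inner membrane, held none of the words and still changed by -1.52 and -1.25. In the SCDi libraries, which had no siRNA, SMIM15, NAA50 and UBE2G2 were at 6.14, 7.93 and 7.80 log2 CPM. In the siSCD_2 libraries, which had another siRNA, they were at 5.71, 7.69 and 7.57.

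**Figure D1:**
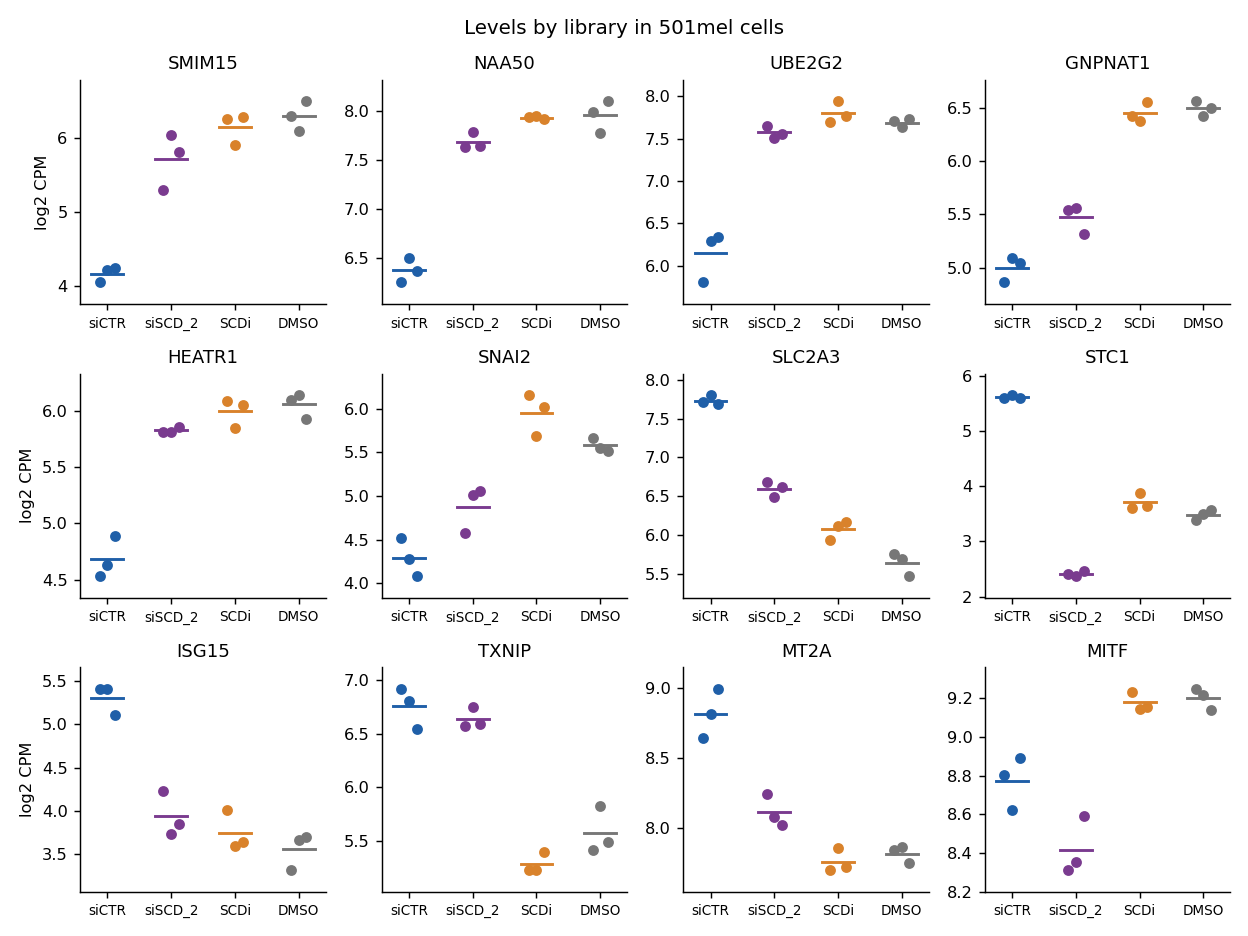
Levels of 12 genes (log2 CPM, y axis, a scale of its own in each panel) in the 501mel libraries of siCTR, siSCD_2, SCDi and DMSO; points are single libraries and bars the means of 3. SMIM15, NAA50, UBE2G2 and HEATR1 are lowest in siCTR, STC1 and ISG15 are highest in siCTR (means of 5.61 and 5.31), and TXNIP is high in siCTR and siSCD_2 (6.75 and 6.64).

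The word was found by ranking all 7-base words of the 3′ UTRs by the change in 501mel, corrected for 3′ UTR length, so its link with the falls in 501mel is a description and gets no test. Among 15285 words, each held by at least 100 of the 8129 scored genes (mean log2 CPM of 3 or more and a matched 3′ UTR), TTACAAA ranked lowest and ATTACAA second lowest. The joined word ATTACAAA was held by 514 genes, 6.32% of those scored. Their median log2 change was -0.18, and 130 of them (25.3%) were lower, against a median of 0.00 and 6.81% lower among the 5979 genes with neither word. Another 17 holders (3.31%) were higher, against 6.32% of the genes with neither word. Genes with TTACAAA but without the joined word (1243), some of which also held ATTACAA elsewhere in the 3′ UTR, had a median of -0.06. Of these 13.8% were lower. Genes with ATTACAA alone (393) had a median of -0.06 with 11.5% lower. Of the 53 scored genes that were at least 2-fold lower, 32.1% held the 8 bases, against 3.53% of the 482 genes that were higher. With the scored genes cut into 3 classes of equal number by 3′ UTR length, the medians of holders were -0.29, -0.18 and -0.17 in the short, middle and long class, against 0.01, -0.01 and 0.01 for genes with neither word. The short class held 21 holders.

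Genes were also split by the word in contrasts that played no part in its ranking. The IGR37 libraries labelled siCTR and DMSO did enter the level that a scored gene had to reach. In the separately normalised table, siSCD_1 minus siCTR_1 in 501mel had a median log2 change of 0.17 among holders of the 8 bases, with 37.2% higher. Genes with neither word had a median of -0.11, with 20.3% higher, where 23.4% of all scored genes were higher in siSCD_1 libraries. In IGR37 the same contrast had medians of 0.08 and -0.08, with 29.2% and 18.4% higher, against 20.2% of all scored genes. By class of 3′ UTR length, the 501mel medians of holders were 0.23, 0.21 and 0.15 (short, middle and long). Those of genes with neither word were -0.18, -0.07 and -0.05. In IGR37 they were -0.13, 0.08 and 0.09 for holders and -0.12, -0.08 and -0.01 for the others. The 21 holders of the short class thus did not stand higher in IGR37. Between the IGR37 libraries labelled siCTR and DMSO the medians of all holders and of all genes with neither word were 0.10 and -0.05. The shares higher were 20.6% and 6.24%, against 7.90% of all scored genes, and TTACAAA ranked highest of all words. Of the 15 leading falls, 11 were higher in siSCD_1 than in siCTR_1 libraries of 501mel, 9 of them past the test, and 2, PDE4DIP and CHCHD6, passed as lower (log2 changes of -0.85 and -0.44). Of all genes tested 20.9% passed as higher and 43.0% in either direction. UBE2G2 was at 7.43 and 7.44 log2 CPM and SETD7 at 4.81 and 4.70 in the siSCD_1 and siCTR_1 groups. A guide whose bases 2 to 8 pair with ATTACAA would read UUGUAAU there, and 0 of the 2370 human mature microRNAs of the RefSeq table do. Guides that pair through TTACAAA, or through fewer bases, were not searched, so the count does not cover all microRNAs that could pair with the word. Whether the control siRNA pairs with the word was not tested, since its sequence is not given in the sources used here.

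**Figure D2:**
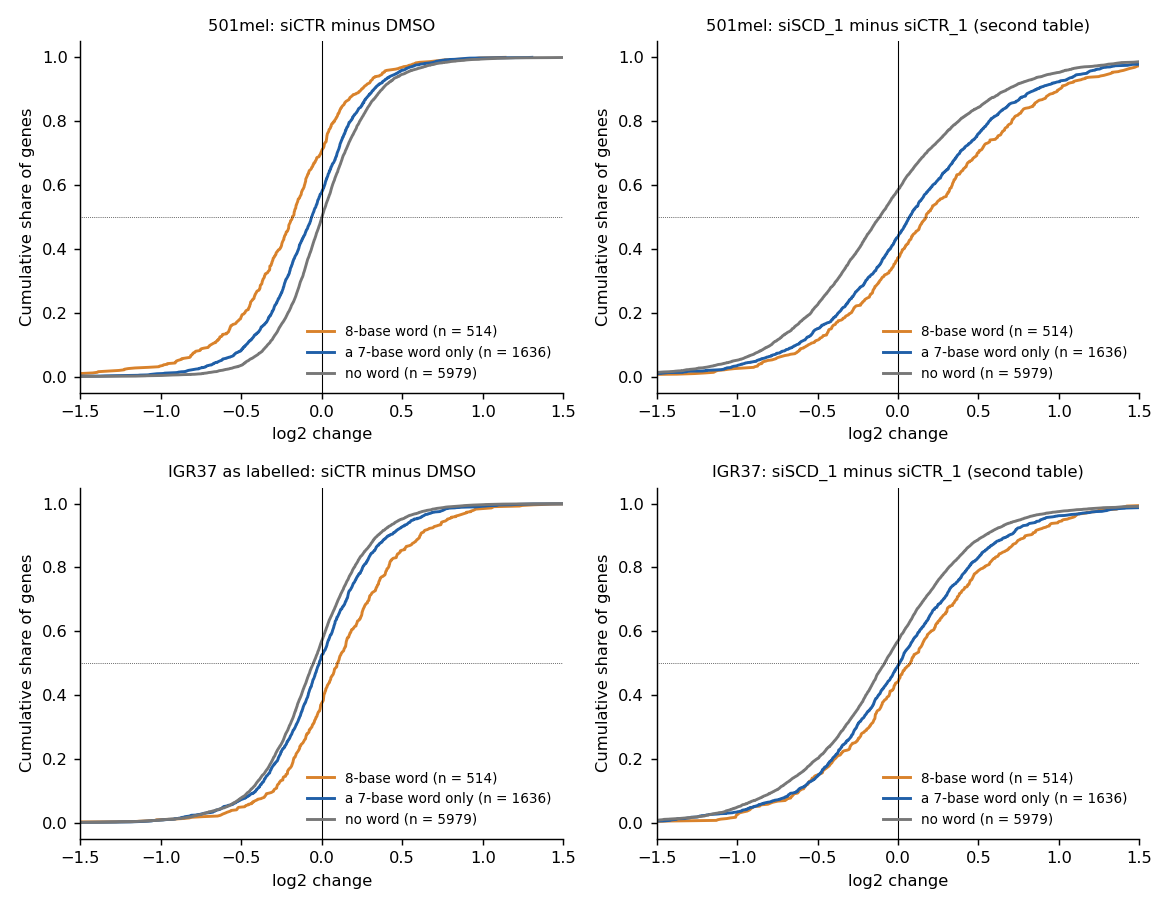
Cumulative share of genes (y axis) by log2 change (x axis, drawn from -1.5 to 1.5) for holders of the 8-base word (514 genes), of a 7-base word only (1636) and of neither (5979), in 4 contrasts. Holders lie to the left, lower, in siCTR minus DMSO of 501mel (median -0.18), and to the right, higher, in the other 3 contrasts (medians 0.17, 0.10 and 0.08).

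Many pigment cell genes fell in siCTR cells. Of the 36 measured genes of the MITF and pigment list, 20 fell and 1 rose, with a median log2 change of -0.33, where 6.57% of all genes tested fell and their median change was 0. MITF itself had 8.80, 8.62 and 8.89 log2 CPM in siCTR cells and 9.25, 9.22 and 9.14 in DMSO cells, 1.35-fold lower (-0.43 ± 0.08, adjusted p = 0.000669). Its groups did not overlap, and it was at 8.42 in siSCD_2 and 9.18 in SCDi cells. TFAP2A, a transcription factor that works beside MITF, had 6.55, 6.56 and 6.62 in siCTR cells and 7.47, 7.33 and 7.43 in DMSO cells (-0.83 ± 0.08, adjusted p = 4.34e-08). DCT, a melanin synthesis enzyme, had 7.61, 7.63 and 7.82 in siCTR cells and 8.36, 8.59 and 8.49 in DMSO cells (-0.79 ± 0.11, adjusted p = 1.04e-05). TYRP1, another melanin enzyme, had 9.80, 9.81 and 9.79 in siCTR cells and 10.31, 10.26 and 10.31 in DMSO cells (-0.49 ± 0.07, adjusted p = 3.22e-05). MET, the hepatocyte growth factor receptor, changed by -0.72 ± 0.08 (adjusted p = 1.61e-06), TRPM1, a melanocyte channel, by -0.98 ± 0.16 (adjusted p = 0.000223), SOX10 by -0.42 ± 0.10 (adjusted p = 0.0042) and the melanosome protein PMEL by -0.37 ± 0.08 (adjusted p = 0.00312).

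The group did not move as one. KIT, the receptor of stem cell factor, rose (8.66, 8.58 and 8.48 log2 CPM in siCTR cells, 7.88, 7.90 and 8.01 in DMSO cells, log2 change 0.65 ± 0.15, adjusted p = 0.00486). TYR, the first enzyme of melanin synthesis, had 8.52, 8.32 and 8.28 in siCTR cells and 8.37, 8.45 and 8.36 in DMSO cells, which overlapped (-0.02 ± 0.09, adjusted p = 0.946). Only 5 of the 36 members held a word in the 3′ UTR, and among the 31 others 17 fell and the median was -0.34. With 1 library left out the number of falls lay between 17 and 20, and under spike-in scaling it was 5, with MITF at an adjusted p of 0.345.

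**Figure D3:**
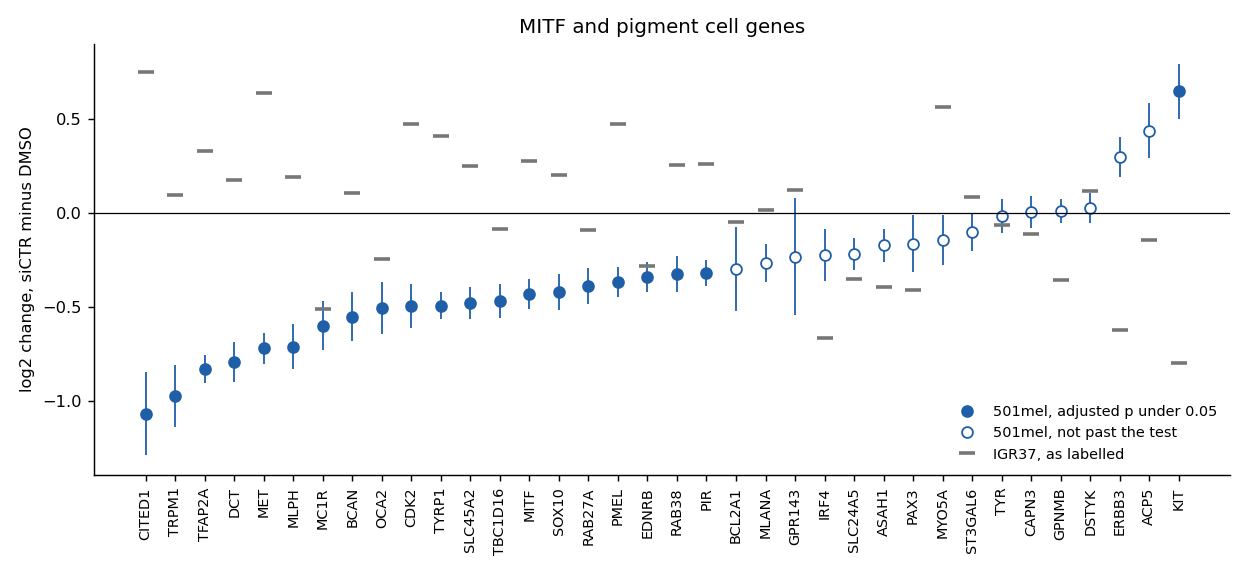
log2 change of the 36 measured MITF and pigment cell genes (y axis, siCTR minus DMSO); filled circles are genes past the test in 501mel, open circles the others, bars are the standard error and grey dashes the change between the IGR37 libraries as labelled. In 501mel 20 genes lie below 0 past the test and KIT above it.

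Of 38 measured DNA replication genes 9 fell and 0 rose in siCTR cells (median log2 change -0.15), where 6.57% of all genes tested fell. GINS3 and GINS2, subunits of the replicative helicase complex, changed by -0.89 ± 0.15 (adjusted p = 0.000314) and -0.59 ± 0.12 (adjusted p = 0.00181), and UHRF1, which maintains DNA methylation, by -1.11 ± 0.26 (adjusted p = 0.00514). Of 37 measured G2 and mitosis genes 9 fell and 1 rose (median -0.16). Cyclin B1 (CCNB1) had 6.42, 6.41 and 6.37 log2 CPM in siCTR cells and 6.91, 6.77 and 6.99 in DMSO cells (-0.49 ± 0.09, adjusted p = 0.000521). AURKA, a mitotic kinase, was the member that rose (0.36 ± 0.09, adjusted p = 0.0107), a call lost without siCTR replicate 2 and without DMSO replicate 2. Of 27 measured MYC and ribosome biogenesis genes 5 fell and 0 rose (median -0.21), among them nucleolin (NCL), at 10.03, 10.02 and 10.03 in siCTR cells and 10.47, 10.49 and 10.45 in DMSO cells (-0.44 ± 0.06, adjusted p = 3.11e-05). The count of falls in DNA replication was 6 without siCTR replicate 1, siCTR replicate 3 or DMSO replicate 3. In G2 and mitosis it was 2 and 3 without DMSO replicates 1 and 3, 4 without siCTR replicate 3 and 5 without siCTR replicate 1 or 2, and in MYC and ribosome biogenesis 2 without DMSO replicate 3 and 3 without any 1 of the siCTR replicates. Under spike-in scaling the falls in these lists numbered 2, 0 and 0, with only the 6 libraries fitted 6, 4 and 2, and with quantile normalisation 8, 3 and 3.

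In the ATF4 amino acid response a minority of members fell, ATF4 among them. ATF4, the transcription factor of the integrated stress response, had 8.01, 8.26 and 8.29 log2 CPM in siCTR cells and 8.78, 8.58 and 8.70 in DMSO cells (log2 change -0.50 ± 0.14, adjusted p = 0.0174). Of 39 measured genes of the list 13 fell, 2 rose and 24 did not pass, with a median of -0.19, where 6.57% of all genes tested fell. ASNS, asparagine synthetase, had 4.06, 4.60 and 4.32 in siCTR cells and 5.20, 5.18 and 5.25 in DMSO cells (-0.88 ± 0.16, adjusted p = 0.000489), with 5.63 in siSCD_2 and 6.09 in SCDi cells. PSAT1, of serine synthesis, changed by -0.71 ± 0.11 (adjusted p = 4.32e-05), and SLC7A11, the cystine transporter, by -0.83 ± 0.15 (adjusted p = 0.000691). The risers were DDIT4 (0.80 ± 0.16, adjusted p = 0.00118) and SESN2 (0.50 ± 0.15, adjusted p = 0.036), both inhibitors of mTORC1 signalling, and DDIT3 (0.10, adjusted p = 0.738) and HSPA5 (-0.02, adjusted p = 0.931) did not pass the test. ATF4's call was lost without siCTR replicate 1, DMSO replicate 1 or DMSO replicate 3 (adjusted p of 0.101, 0.0758 and 0.0564), and the count of falls was 8 without DMSO replicate 3. Under spike-in scaling 2 members fell and 0 rose, with ATF4 at an adjusted p of 0.264. Of the NRF2 list, 5 of 24 fell and 1 rose. The glutathione gene GCLM, which held ATTACAA, changed by -0.46, and the quinone reductase NQO1, which held the 8-base word, by -0.45. Of the 8 members with a word in the 3′ UTR 3 fell. Among the 16 others 2 fell and 1 rose, with a median of 0.07. The NRF2 count of falls was 3 without siCTR replicate 3 or DMSO replicate 3.

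Interferon-stimulated genes leaned upward, and few passed the test. Of 38 measured, 6 rose and 0 fell, with a median log2 change of 0.43, where 4.74% of all genes tested rose. The rises numbered 2 under spike-in scaling and 4 with only the 6 libraries fitted. ISG15, a ubiquitin-like modifier, had 5.41, 5.41 and 5.11 log2 CPM in siCTR cells and 3.32, 3.67 and 3.70 in DMSO cells, 3.36-fold higher (1.75 ± 0.26, adjusted p = 4.16e-05). It was at 3.94 in siSCD_2 and 3.75 in SCDi cells, so the siCTR libraries stood apart from all the other 501mel groups of the table. IFITM3, a membrane protein against virus entry, had 6.59, 6.37 and 6.45 in siCTR cells and 5.76, 5.94 and 5.66 in DMSO cells (0.68 ± 0.10, adjusted p = 3.82e-05). PARP14 and DTX3L, an ADP-ribosyltransferase and a ubiquitin ligase, changed by 0.83 ± 0.15 (adjusted p = 0.000374) and 0.61 ± 0.12 (adjusted p = 0.00123), and BST2 and PARP9 also rose, by 1.19 and 0.65. The antiviral genes IFIT1 (0.84, adjusted p = 0.463) and MX1 (0.59, adjusted p = 0.565) did not pass, with 60 and 25 reads over the siCTR libraries and 36 and 17 over the DMSO libraries.

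The ISG15 and IFITM3 promoters are shown since these genes had the smallest adjusted p of the list. The motif searched on both strands was GAAANNGAAA, a form of the interferon-stimulated response element, in windows of 250 bases before to 50 after the start site (RefSeq, GRCh38.p14). It lay in 3.57% of all 35116 promoters, in 2.87% of the 14681 promoters of tested genes, in 25 of 40 promoters of the list (62.5%) and in at least 1 promoter of each of the 6 risers. The matching windows of DTX3L and PARP9 overlap on opposite strands, and their match is the same site. The ISG15 window is chr1:1013247-1013546 (plus strand) and the IFITM3 window chr11:320811-321110 (minus strand), each with 2 matches, in capitals, which overlap in ISG15. A match is a description of the letters.
ISG15: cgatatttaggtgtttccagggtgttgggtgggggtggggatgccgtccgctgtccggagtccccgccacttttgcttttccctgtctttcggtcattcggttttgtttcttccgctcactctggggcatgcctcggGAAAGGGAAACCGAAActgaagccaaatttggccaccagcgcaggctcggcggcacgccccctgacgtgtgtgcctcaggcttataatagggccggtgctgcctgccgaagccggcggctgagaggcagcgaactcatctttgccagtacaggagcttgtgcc
IFITM3: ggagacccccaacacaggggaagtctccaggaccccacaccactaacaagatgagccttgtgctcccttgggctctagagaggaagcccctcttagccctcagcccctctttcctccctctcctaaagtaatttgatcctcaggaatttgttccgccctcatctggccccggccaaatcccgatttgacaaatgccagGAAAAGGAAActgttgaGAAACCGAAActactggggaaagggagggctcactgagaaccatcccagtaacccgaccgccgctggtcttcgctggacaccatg

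RNA sensors did not move as a list. Of 15 measured, ZNFX1 rose and TRIM25 fell, with a median log2 change of 0.07, and the sensors DDX58 (0.68, adjusted p = 0.197) and IFIH1 (0.82, adjusted p = 0.113) and the kinase EIF2AK2 (0.04, adjusted p = 0.918) did not pass. Of 18 NF-kB and inflammatory genes, the chemokine CXCL8 rose, at 3.53, 3.91 and 3.03 log2 CPM in siCTR cells and 1.99, 1.67 and 2.24 in DMSO cells (1.53 ± 0.33, adjusted p = 0.00295), and NFKB1 fell by 0.48. Of 19 genes of the RNA interference machinery 3 rose and 1 fell, where 4.74% of all genes tested rose and 6.57% fell. DICER1, which cuts small RNAs from their precursors, had 5.39, 5.24 and 5.43 in siCTR cells and 4.81, 4.35 and 4.55 in DMSO cells (0.79 ± 0.17, adjusted p = 0.00248). TNRC6A and AGO2, partners in the silencing complex that both held TTACAAA, changed by 0.55 ± 0.12 (adjusted p = 0.00398) and 0.54 ± 0.16 (adjusted p = 0.0329). The exonuclease XRN1, a holder of the 8-base word, changed by -0.91 ± 0.14 (adjusted p = 0.000109). The calls of ZNFX1, NFKB1 and AGO2 were lost when single libraries of either group were left out, up to adjusted p of 0.183, 0.163 and 0.166, and that of TRIM25 without siCTR replicate 1 (adjusted p = 0.122).

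Among the 15 largest rises were genes of glucose handling and of cell contacts. SLC2A3, the glucose transporter GLUT3, had 7.71, 7.80 and 7.68 log2 CPM in siCTR cells and 5.76, 5.70 and 5.48 in DMSO cells, 4.24-fold higher (2.08 ± 0.10, adjusted p = 9.79e-13). STC1, a secreted glycoprotein, had 5.59, 5.64 and 5.58 in siCTR cells and 3.38, 3.50 and 3.57 in DMSO cells (2.12 ± 0.25, adjusted p = 1.99e-06), and 2.41 in siSCD_2 cells. Like the falls, the rises were chosen among genes whose groups did not overlap. TXNIP, an inhibitor of glucose uptake and thioredoxin, had 6.92, 6.80 and 6.54 in siCTR cells and 5.42, 5.82 and 5.49 in DMSO cells (1.18 ± 0.13, adjusted p = 8.43e-07). PDP1, the phosphatase that activates pyruvate dehydrogenase, changed by 1.41 ± 0.17 (adjusted p = 3.95e-06). The junction proteins JUP and CXADR changed by 1.17 ± 0.15 and 1.34 ± 0.18, and the lipocalin receptor LMBR1L by 1.50 ± 0.21. HBP1, a repressor of cell cycle genes, and MYLIP, a ubiquitin ligase, changed by 1.13 ± 0.14 and 1.31 ± 0.18. TXNIP, HBP1 and MYLIP were also high in siSCD_2 cells, at 6.64, 5.46 and 5.70, and low in SCDi cells, at 5.28, 3.98 and 4.02, whereas SLC2A3, PDP1 and LMBR1L had 6.60, 4.03 and 4.47 in siSCD_2 cells and 6.08, 3.83 and 3.58 in SCDi cells. Of the 15 largest rises 0 held the 8-base word, 3 (SORBS2, MYLIP and NKD1) held a 7-base word, and 1 had no matched 3′ UTR.

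In the hypoxia and glycolysis list 5 of 35 rose and 4 fell, where 4.74% of all genes tested rose and 6.57% fell. Beside SLC2A3, the glucose transporter SLC2A1 (0.47 ± 0.11, adjusted p = 0.00551), HIF1A (0.49 ± 0.11, adjusted p = 0.00571) and P4HA2 (0.73 ± 0.13, adjusted p = 0.000517) rose, while hexokinase HK2 (-0.82 ± 0.12, adjusted p = 4.96e-05) and MXI1 (-0.78 ± 0.12, adjusted p = 0.000106) fell, and VEGFA did not pass (-0.02, adjusted p = 0.953). MT2A, a metallothionein, had 8.64, 8.81 and 8.99 log2 CPM in siCTR cells and 7.84, 7.86 and 7.75 in DMSO cells, 2.00-fold higher (1.00 ± 0.10, adjusted p = 1.14e-07). Lipid genes moved both ways. Of 26 cholesterol genes 4 rose and 4 fell, with the synthesis enzyme CYP51A1 lower (-0.41 ± 0.09, adjusted p = 0.0036). Of 10 LXR genes 3 rose, among them MYLIP and NR1H2 (1.15 ± 0.28, lost without siCTR replicate 1 at an adjusted p of 0.0504), and the median was 0.57. In 35 lysosome and autophagy genes 5 rose and 3 fell, with GABARAPL1 at 0.73 ± 0.11 and LAMP2, which held TTACAAA, at -0.71 ± 0.08. The falls among cholesterol genes numbered 1 without siCTR replicate 1 and 2 without DMSO replicate 1 or 3, the rises 2 without siCTR replicate 1 or 2 or DMSO replicate 1, and the lysosome rises 3 without DMSO replicate 1. Under spike-in scaling 1 hypoxia gene rose and 1 fell, and 0 cholesterol genes rose and 1 fell.

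Genes of the YAP-TEAD, TGF-beta and invasive melanoma lists leaned upward with less firm counts. Of 18 YAP-TEAD genes 5 rose and 1 fell (median log2 change 0.52), of 28 invasive genes 6 and 1 (median 0.18), and of 24 TGF-beta genes 4 and 1 (median 0.24), where 4.74% of all genes tested rose. WWTR1, the coactivator TAZ and a holder of ATTACAA, had 7.18, 7.09 and 7.11 log2 CPM in siCTR cells and 6.55, 6.67 and 6.44 in DMSO cells (0.58 ± 0.09, adjusted p = 4.20e-05). TEAD1, its DNA-binding partner and a holder of the 8-base word, had 5.60, 5.53 and 5.40 in siCTR cells and 6.60, 6.33 and 6.32 in DMSO cells (-0.90 ± 0.12, adjusted p = 9.23e-06). CYR61 and CTGF, secreted matrix proteins, changed by 0.64 ± 0.18 (adjusted p = 0.0222, and 0.114 without siCTR replicate 2) and 0.75 ± 0.23 (adjusted p = 0.031). TGFBR2, which held TTACAAA, rose (1.28 ± 0.21, adjusted p = 0.000122). TGFBR1, the other chain of the receptor and a holder of the 8-base word, fell (-0.57 ± 0.14, adjusted p = 0.00777, and 0.0713 without siCTR replicate 1). NT5E, in the first pair of lists, passed with 4 reads in the siCTR libraries and 0 in the DMSO libraries. Without siCTR replicate 1 the rises numbered 1 in each of the 3 lists, and without siCTR replicate 2 they numbered 2, 1 and 2. Without DMSO replicate 1 they numbered 3, 4 and 2, without DMSO replicate 2 they numbered 2, 3 and 5, and without DMSO replicate 3 they numbered 2, 3 and 2. Under spike-in scaling they numbered 0, 0 and 1, and with only the 6 libraries fitted 3, 1 and 1. The fibroblast markers moved with these lists (sums of 10.6 to 13.2 CPM in siCTR and 5.59 to 7.35 CPM in DMSO libraries), 5 of 12 in the table, with FAP called (54 reads over the siCTR and 16 over the DMSO libraries) and COL1A1 not (adjusted p = 0.707). Their part in the result was not tested.

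**Figure D4:**
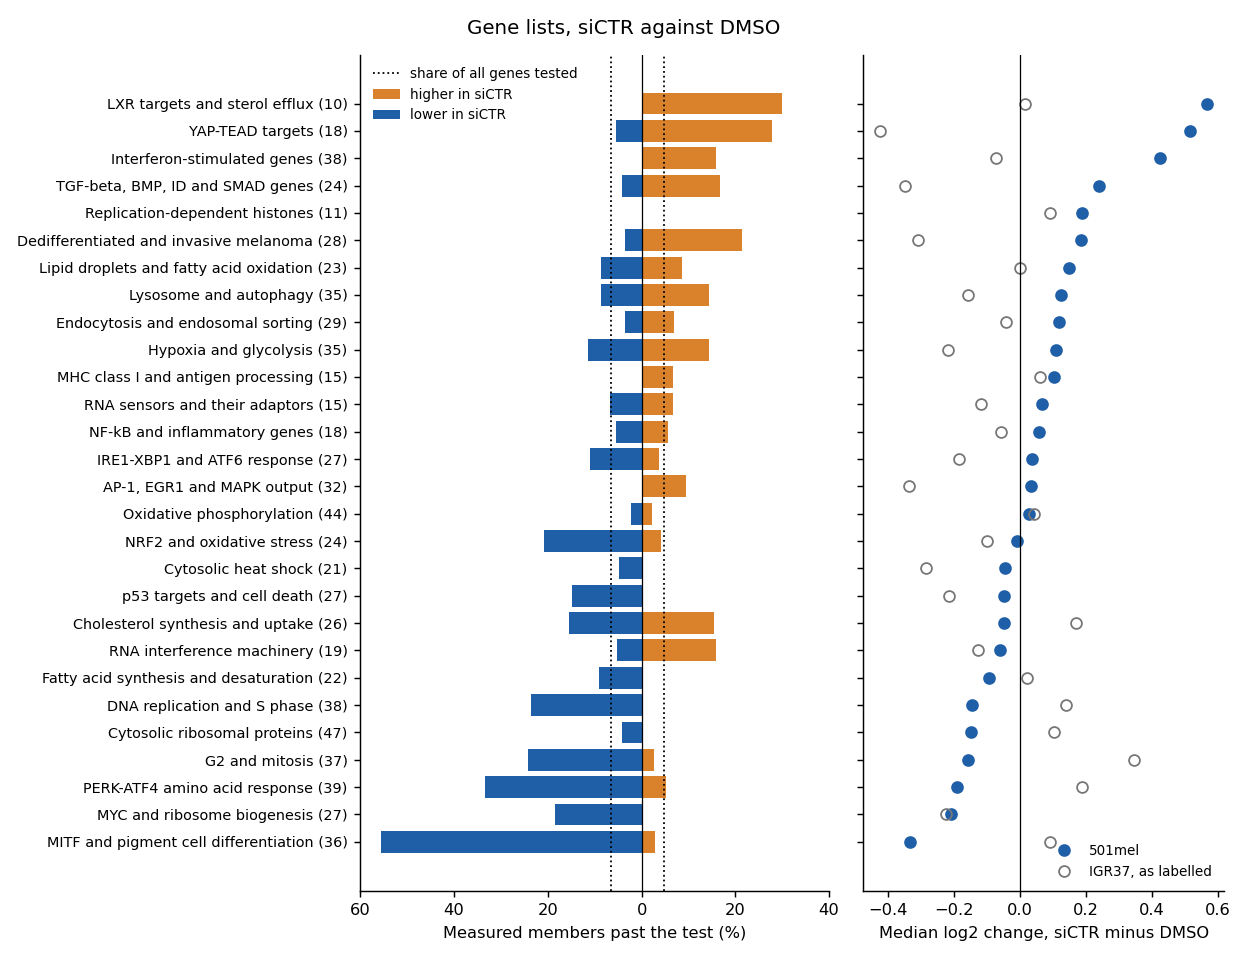
Left, share of measured members (x axis, %, list size in brackets) higher to the right and lower to the left in siCTR than in DMSO cells of 501mel, with dotted lines at the shares over all genes tested (4.74% and 6.57%); right, median log2 change in 501mel (filled) and between the IGR37 libraries as labelled (open), for lists of 10 or more measured genes. The pigment list has the longest bar to the left and the lowest median (-0.33).

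Few members passed the test in the remaining lists, and over all genes tested 4.74% rose and 6.57% fell. Of 47 cytosolic ribosomal proteins 2 fell and 0 rose, but only 2 were higher by estimate, with a median log2 change of -0.15. With quantile normalisation that median was -0.01. Of 44 oxidative phosphorylation genes 1 rose and 1 fell, and of 21 cytosolic heat shock genes 1 fell. Of 15 MHC class I genes HLA-C rose (0.68 ± 0.19, adjusted p = 0.0212, and 0.0803 without DMSO replicate 2). Of 27 genes of the IRE1-XBP1 and ATF6 response 1 rose and 3 fell, with HERPUD1, of endoplasmic reticulum protein degradation, at -0.65 ± 0.08 (adjusted p = 4.93e-06). Of 27 p53 and cell death genes 4 fell and 0 rose, among them MCL1 (-0.36 ± 0.08, adjusted p = 0.00571), and CDKN1A had 3 reads in the siCTR and 4 in the DMSO libraries. The p53 count was 1 without siCTR replicate 1, siCTR replicate 3 or DMSO replicate 3, and 2 without DMSO replicate 1 or 2. The MAPK output list had 3 of 32 higher, with PHLDA1 at 0.57 ± 0.07 (adjusted p = 6.72e-06) and IER3 at 0.75 ± 0.10 (adjusted p = 1.61e-05). Endocytosis genes had 2 of 29 higher and 1 lower, lipid droplet and oxidation genes 2 of 23 each way, fatty acid synthesis genes 2 of 22 lower, and 0 of 11 histone genes passed. Without siCTR replicate 1 the lipid droplet and oxidation list had 0 members higher and 0 lower, and without DMSO replicate 3 it had 1 higher and 0 lower.

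Set beside 501mel, the IGR37 libraries labelled siCTR against those labelled DMSO had 2065 genes past the test (15.5%), 863 higher (6.46%) and 1202 lower (8.99%). The change differed between the lines for 2512 genes (18.8%), 1308 with a higher value in 501mel (9.79%) and 1204 with a lower one (9.01%). A total of 522 genes passed in both lines, 34.5% of those of 501mel and 25.3% of those of IGR37, and 462 of them (88.5%) had opposite signs. Of these, 249 were lower in 501mel and higher in IGR37 and 213 the reverse, while 45 were lower and 15 higher in both. Across the 6682 genes at or above the median level the changes had a Pearson r of -0.39 and a Spearman rho of -0.33, a description over genes, which are not independent. All 15 leading falls of 501mel were higher in the IGR37 libraries labelled siCTR, 11 of them past the test, and the difference passed for all 15.

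The changes of STC1, SLC2A3 and SMIM15 differed by 5.24 ± 0.35, 3.91 ± 0.15 and -3.37 ± 0.22 on the log2 scale, 501mel minus IGR37. SEPW1, a selenoprotein, had 8.57, 8.52 and 8.52 log2 CPM in siCTR and 7.41, 7.52 and 7.39 in DMSO cells of 501mel, against 8.26, 8.25 and 8.28 in the IGR37 libraries labelled siCTR and 9.34, 9.35 and 9.44 in those labelled DMSO. The 2 lines thus had changes of 1.10 and -1.11. A few genes went another way. ISG15 differed (1.83 ± 0.36, adjusted p = 0.000725) where it was at 3.30, 3.97 and 3.91 in the IGR37 libraries labelled siCTR and 3.87, 3.51 and 4.05 in those labelled DMSO, and NKD1, a Wnt antagonist, was higher with the siCTR label in both lines (1.14 ± 0.32 in 501mel and 1.09 ± 0.32 in IGR37). NKD1's call in 501mel was lost without siCTR replicate 2, siCTR replicate 3 or DMSO replicate 1 (adjusted p of 0.0758, 0.0555 and 0.0528), and also without DMSO replicate 3 (adjusted p = 0.0942).

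**Figure D5:**
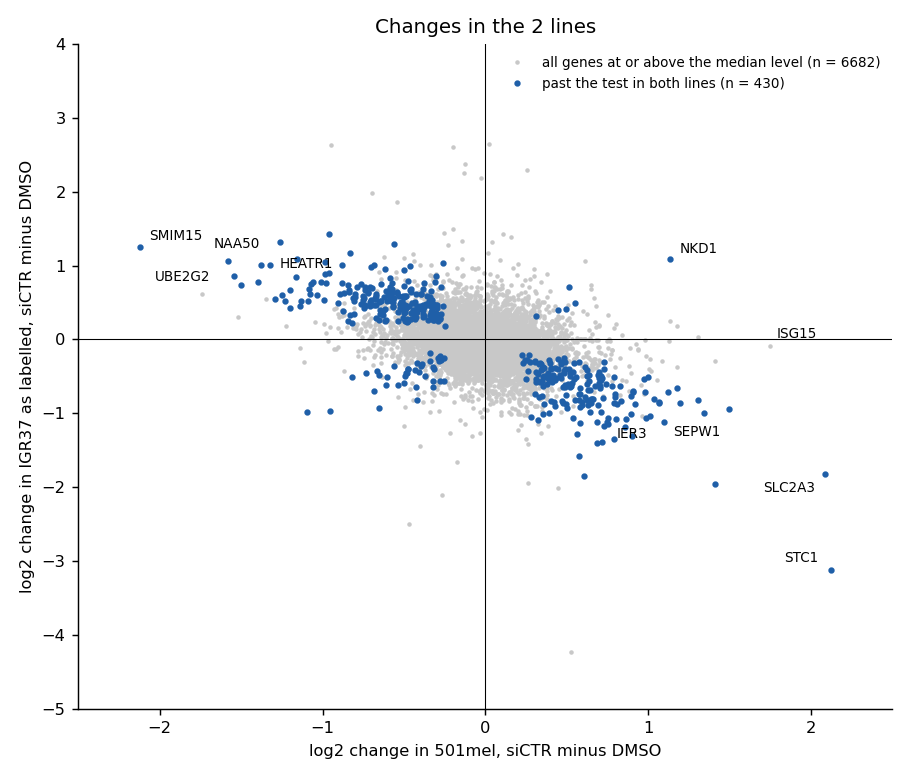
log2 change between siCTR and DMSO libraries in 501mel (x axis) and between the IGR37 libraries as labelled (y axis) for the 6682 genes at or above the median level (grey), with the 430 genes past the test in both lines in blue. Most blue points lie in the upper left and lower right, with SMIM15 and SLC2A3 near the ends.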

How the data were processed

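RNA of 36 libraries was measured with QuantSeq Forward 3′ tags, per the labels' protocols. The submitters' processing notes name STAR, edgeR and the build hg38, with no versions. Log2 values are what the authors deposited, in 2 tables with separate normalisation. The first, used for all tests on siCTR and DMSO, held 24 libraries and 13364 genes, and the second 12 libraries and 13066 genes; 66 and 60 spike-in rows and 1 tag sequence (Mitf-FLAG) were set aside. Read as log2 CPM with a prior count of 0.25, each deposited value gave back whole reads within 0.000435 and 0.000301 reads. As the values are on a log scale, the deposited values were fitted with limma 3.58.1 in R 4.3.3 (lmFit and contrasts.fit, then eBayes using its trend option, 1 coefficient per group, all libraries of a table), two-sided, with Benjamini-Hochberg (BH) adjustment over all genes of the table and a threshold of 0.05. Errors are standard errors (SE) of the fit. The fit and the word ranking were tested on simulated data. Alternatives were a fit of the compared libraries only, no variance trend, other filters on low values, another pseudocount, quantile, median and spike-in scaling, limma voom on the recovered reads, each library left out in turn and a replicate block.

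The 33 gene lists were written with earlier results of these data known, and so was the choice of the comparison; 1 list (mitochondrially encoded transcripts) had 0 measured members. Genes were named by rule: SCD, MITF and ATF4; the 15 largest rises and 15 largest falls past the threshold whose groups did not overlap, taken from the genes no lower than the median level; up to 4 members per list past the threshold by smallest adjusted p, or the 1 with the smallest p where none passed; and 6 genes in each direction for the difference between the lines, with unnamed loci left out. Other genes named (TRPM1, SOX10, PMEL, KIT, TYR, BST2, PARP9, IFIT1, MX1, DDX58, IFIH1, EIF2AK2, DDIT3, DDIT4, SESN2, HSPA5, SLC2A1, HIF1A, VEGFA, CTGF, NT5E, CDKN1A and COL1A1) were chosen after their values were seen. GENCODE 29 supplied identifiers, 3′ UTRs (of each gene's coding transcript with the longest 3′ UTR) and coordinates; 12604 symbols matched. The scan of 3′ UTR words, its repeat in other libraries and the lists without word holders were added after seeing the data. Some items are not reported here.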

Additional observations from a re-analysis of the deposited data

Results flagged for a closer look

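A test of the difference itself set the change between siCTR and DMSO in 501mel against that in the IGR37 libraries with the same labels. It passed for 2512 genes in all and for 109 of the 128 genes named by rule (limma, BH adjusted p under 0.05). The 6 positive differences named by rule, 501mel minus IGR37 on the log2 scale, were 3.91 for SLC2A3, 2.46 for HMGA2, 2.44 for LMBR1L, 2.33 for CXADR, 2.21 for SEPW1 and 2.16 for GDF15. The 6 negative ones were -3.37 for SMIM15, -2.65 for NAA50, -2.55 for LRP12, -2.41 for UBE2G2, -2.39 for HEATR1 and -2.39 for TECPR2. The rule kept only genes at or above the median level whose 501mel groups did not overlap, so larger differences, that of STC1 among them, are left out. Whether the labels of the IGR37 libraries hold was not tested.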

How the results depend on the processing

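The alternatives were run on the counts and on each of the 128 genes named by rule. The count for siCTR against DMSO in 501mel, 1511 as reported, was 951 with only the 6 libraries fitted and 241 with spike-in scaling, and it lay between 994 (without DMSO replicate 3) and 1215 with 1 library left out, with 1007 without siCTR replicate 1. Under spike-in scaling the count was 454 in IGR37 and 663 for the difference between the lines. Over genes, 73 of 128 lost their call with spike-in scaling, 33 with only the 6 libraries, and 0 with the replicate block. SCD was the 1 gene that changed sign, to 0.036 with quantile normalisation (adjusted p = 0.939), past no threshold in either setting. The cause was not tested. With the replicate block the count was 1670. Deviations from the group means were compared between same-numbered siCTR and DMSO libraries of 501mel, over genes at or above the median level. Their correlations were -0.15, -0.30 and 0.02, so the numbers were not taken as pairs. At this depth, genes with few reads (NT5E, IFIT1, MX1) have changes that counting error limits.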
